A study of Schizosaccharomyces pombe with 4 samples.

Results

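The fission yeast genes for splitting maltose and sucrose, mal1 (SPBC1683.07), agl1 (SPAPB24D3.10c) and inv1 (SPCC191.11), were described together with SPNCRNA.1317, a non-coding RNA annotated on the strand opposite to mal1. These 4 genes were taken by identifier from the 7092 genes in the deposited files, and they were chosen with their difference between the groups already in view. The groups were 2 libraries labelled loz1 deletion and 2 labelled wild type. Both strains had grown in a zinc-limited minimal medium to which zinc was added back, given in the labels as 100 mM, to an OD600 near 6.0. Loz1 is a zinc finger repressor that acts in zinc-replete cells, and the study asked which genes depend on it. The labels do not state whether the replicates were grown as separate cultures, so a p-value reflects the spread of these samples alone, which may be technical. In bulk RNA, fewer cells of a type and less RNA per cell cannot be told apart.

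Fission yeast takes up maltose and sucrose or cleaves them outside the cell, and uses the released glucose and fructose. The product of mal1 is annotated as a maltase, that of agl1 as a maltose alpha-glucosidase, and that of inv1 as an external invertase, the enzyme that splits sucrose at the cell surface. In this yeast inv1 is a known target of glucose repression, in which the zinc finger repressor Scr1 keeps genes for other carbon sources low while glucose lasts. The non-coding RNA has no annotated function in the sources used here.

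The libraries differed beyond the deletion named in their labels. The loz1 transcript was listed at 56.4 and 56.0 FPKM in the deletion-labelled libraries, against 6.87 and 5.81 FPKM in wild type, so every direction is given for the libraries as labelled. FPKM gives fragments scaled by transcript length and by library depth, so levels of genes can be set side by side. The M-specific mating-type gene mat1-Mc was at 0 to 0.137 FPKM in the deletion-labelled libraries, against 159 to 257 FPKM in wild type, and a difference of mating type between the strains cannot be told apart from the deletion. Depth, estimated from the bounds in the files, was 1.65e+07 and 1.77e+07 fragments in the deletion-labelled libraries and 1.54e+07 and 1.56e+07 in wild type. Over the 6315 genes tested the median gap between libraries on the log2 scale was 0.09 in the deletion-labelled pair and 0.24 in the wild-type pair.

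The mal1 transcript covers chromosome II from 151490 to 155630 on the plus strand, in 1 exon of 4141 nt, in the ASM294v2 coordinates of the files. In the RefSeq annotation (ASM294v3) the gene starts later, at 152911, and its coding sequence lies at 153562 to 155301. SPNCRNA.1317 lies on the minus strand at 154152 to 154516 in both annotations, 365 nt inside the mal1 coding sequence, so its RNA is complementary to mal1 mRNA. Its first 300 nt from the 5′ end, at chrII:154217-154516 of ASM294v3, are shown because this short stretch carries the largest difference of the 4 genes. They were read from the RefSeq genome and hold no capitals, since no motif was marked.
SPNCRNA.1317: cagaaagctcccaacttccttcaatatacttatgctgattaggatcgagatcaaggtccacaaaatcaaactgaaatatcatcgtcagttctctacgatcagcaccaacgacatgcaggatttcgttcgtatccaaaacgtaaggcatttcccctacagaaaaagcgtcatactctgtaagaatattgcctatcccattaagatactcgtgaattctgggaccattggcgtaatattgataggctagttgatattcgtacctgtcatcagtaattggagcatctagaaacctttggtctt
The gene agl1 lies on chromosome I, minus strand, with a transcript of 4149 nt in 1 exon at 2967916 to 2972064. RefSeq gives its coding sequence at 2968079 to 2970988. The gene inv1 lies on chromosome III, plus strand, with a transcript of 2772 nt in 1 exon at 1723393 to 1726164 and a RefSeq coding sequence at 1724306 to 1726051. No 100-nt stretch of the 4 RefSeq genes occurred a further time in the reference genome.

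The 1000 bases before each RefSeq start codon were searched on both strands for 3 short motifs in 5144 genes. The Loz1 response element, with its variable bases free, had a match before 4.06% of genes, and none before mal1, agl1 or inv1. The letters CCCCTC, known in this yeast from a starvation response element, had a match before 7.48% of genes and none before these 3. The letters CCCCAC, whose reverse complement GTGGGG is a core of the sites of Mig1, a budding yeast relative of Scr1, had a match before 8.11% of genes. Before agl1 they occurred 4 times, and agl1 was the 1 gene of 5144 with at least 4 matches. This cut-off equals the count of agl1 itself, which agl1 therefore meets by construction. There was no match before mal1 or inv1. Matches are letters and not shown binding sites, and the motifs were chosen after the values of these genes were known. Of these matches 3 are printed with the flanking bases on the minus strand of ASM294v3, which codes agl1, with CCCCAC in capitals, and lie 765, 704 and 453 bases before the start codon. They fall inside the longer agl1 transcript of the files and outside the RefSeq gene.
agl1 at chrI:2971740-2971761: tgtcctccCCCCACatccgcct
agl1 at chrI:2971679-2971700: gattccatCCCCACgagaaaat
agl1 at chrI:2971428-2971449: agtttctcCCCCACttttataa

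The maltase gene mal1 was higher in the deletion-labelled libraries. It was at 137 and 144 FPKM there, against 71.1 and 58.8 FPKM in wild type. Both deletion-labelled libraries lay above both wild-type libraries, and the groups did not overlap. The means were 141 ± 4.57 FPKM in the deletion-labelled libraries and 65.0 ± 8.69 FPKM in wild type (SD, n = 2 each), a ratio of 2.16. On the log2(FPKM + 1) scale, where changes of low genes come out too small, the difference was 1.11 ± 0.12 (SE from limma). All differences here are deletion-labelled libraries minus wild type and include a shift of 0.13, the median over all genes tested; after rescaling the libraries by median ratios the difference of mal1 was 0.97.

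The RNA opposite to it, SPNCRNA.1317, was at 246 and 275 FPKM in the deletion-labelled libraries and was listed at 1.1e-09 and 0 FPKM in wild type. The upper bounds that the files give for the wild-type values are 0.748 and 0.743 FPKM, so the groups stood far apart. The mean was 260.5 ± 20.9 FPKM in the deletion-labelled libraries (SD, n = 2), and no ratio is given against a group at 0. The difference on the log2(FPKM + 1) scale, 8.03 ± 0.14, depends on the constant added and is no bound. Within the deletion-labelled libraries SPNCRNA.1317 exceeded mal1 by a ratio of 1.79 and 1.91 in FPKM.

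Because the RNA lies wholly inside mal1 and no strand setting is given, reads over the shared 365 nt cannot be assigned to a strand from these files. The shared stretch is 8.81% of the mal1 transcript. The signal of the pair was therefore also added up as FPKM times length and divided by the 4141 nt of mal1. This locus level was 159 and 168 FPKM in the deletion-labelled libraries and 71.1 and 58.8 FPKM in wild type, a difference of 1.32 ± 0.12 (log2, SE). SPNCRNA.1317 took 13.6% and 14.4% of the signal of the pair in the deletion-labelled libraries and practically none in wild type. As SPNCRNA.1317 was practically absent in wild type, adding it could only raise the difference already seen for mal1. The split between both transcripts rests on how the deposited values shared out the reads. Other opposite-strand transcripts, such as SPNCRNA.1318 over 1110 nt of mal1, are not in the sum. Therefore the locus level also rests on that sharing.

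The alpha-glucosidase gene agl1 was lower in the deletion-labelled libraries. It was at 128 and 157 FPKM there, against 1180 and 470.2 FPKM in wild type. Both deletion-labelled libraries lay below both wild-type libraries, and the wild-type values themselves differed by a ratio of 2.51. The means were 143 ± 20.5 FPKM in the deletion-labelled libraries and 825 ± 502 FPKM in wild type (SD, n = 2 each), so the wild-type mean was 5.78 times that of the deletion-labelled libraries. The difference was -2.38 ± 0.44 (log2, SE). Without wild-type replicate 1 it was -1.72, without wild-type replicate 2 it was -3.05, and without labelled deletion replicate 1 or 2 it was -2.24 or -2.53. Other transcripts overlap 1.61% of agl1, all of it by SPNCRNA.866 on the same strand, which was at 2.85 and 3.68 FPKM in the deletion-labelled libraries, against 3.37 and 2.99 FPKM in wild type.

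The invertase gene inv1 did not separate the groups. It was at 283 and 337 FPKM in the deletion-labelled libraries, against 686 and 261 FPKM in wild type. The wild-type libraries lay on either side of both deletion-labelled libraries, and their ratio was 2.63. The means were 310 ± 38.1 FPKM in the deletion-labelled libraries and 473 ± 301 FPKM in wild type (SD, n = 2 each), with a difference of -0.45 ± 0.46 (log2, SE). The sign of this difference was set by 1 wild-type library: it was 0.25 without wild-type replicate 1 and -1.15 without wild-type replicate 2. Without labelled deletion replicate 1 or 2 it was -0.33 or -0.58. The 2.42% of inv1 that is overlapped lies under SPNCRNA.1224, at 25.4 and 22.3 FPKM in the deletion-labelled libraries, against 25.8 and 27.5 FPKM in wild type.

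**Figure D1:**
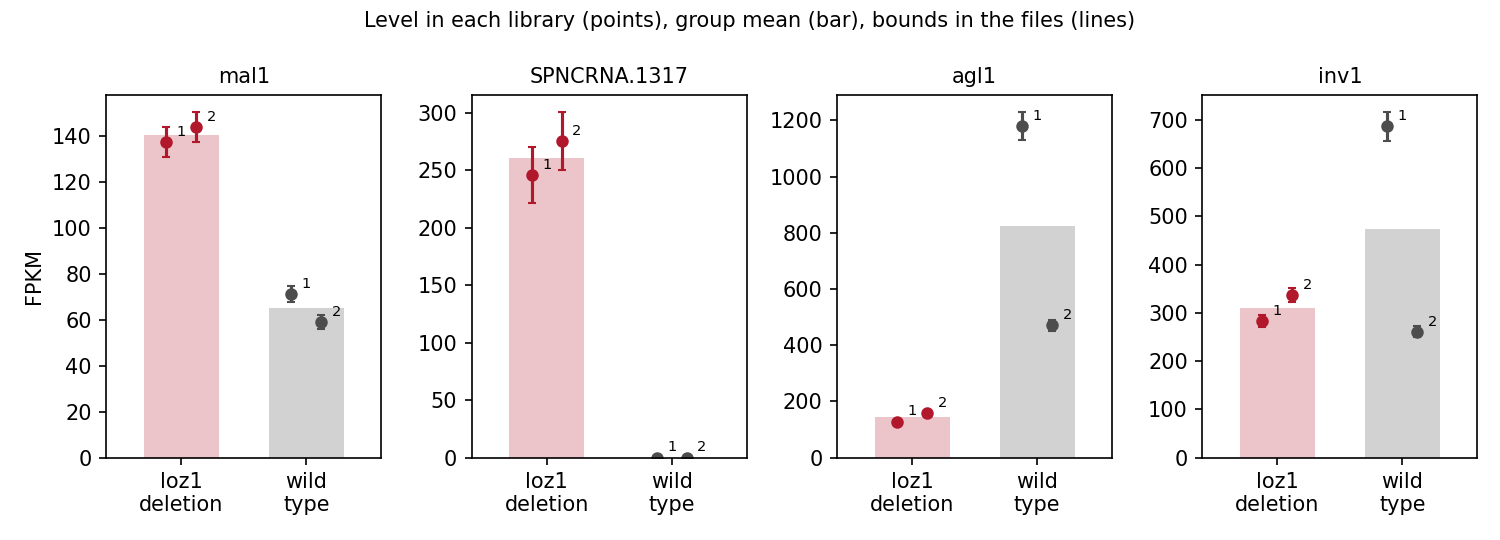
FPKM of mal1, SPNCRNA.1317, agl1 and inv1 in the 2 deletion-labelled libraries (red) and the 2 wild-type libraries (grey). Points are libraries with their replicate number, lines the bounds given in the files, and bars group means; mal1 and SPNCRNA.1317 are higher and agl1 lower in the deletion-labelled libraries, while the inv1 points at 686 and 261 FPKM in wild type enclose those of the deletion-labelled libraries.

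Of the 4 genes, mal1 and SPNCRNA.1317 passed the limma threshold of an adjusted p under 0.05 as higher and agl1 as lower, and inv1 did not pass. Over all 6315 genes tested 11.9% (753 genes) passed as higher and 4.37% (276 genes) as lower, 16.3% in all; after rescaling 420 passed as higher and 319 as lower. Groups that did not overlap were found in 66.3% of tested genes, with the deletion-labelled libraries above in 44.7% and below in 21.6%. Since the 4 genes were chosen from this contrast, nothing is read from their count. With labelled deletion replicate 1 or 2 omitted, mal1 (1.14 or 1.07) and agl1 no longer passed. The difference of SPNCRNA.1317 was then 8.11 or 7.95. Its only remaining pair, wild type at 1.1e-09 and 0 FPKM, has practically no spread, so its call there shows no stability. The call of agl1 was also lost with no filter on level and with a prior without trend. When wild-type replicate 2 was left out, inv1 passed as lower. Without wild-type replicate 1 or 2 mal1 stood at 1.24 or 0.97.

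The order of the 4 levels differed between the groups. In both wild-type libraries agl1 was highest, followed by inv1, mal1 and SPNCRNA.1317. In both deletion-labelled libraries inv1 was highest and SPNCRNA.1317 came next, while mal1 and agl1, at 137 and 144 against 128 and 157 FPKM, did not differ beyond the spread of their libraries. The place of SPNCRNA.1317 above mal1 rests on how reads over their shared stretch were assigned, which these values cannot settle. Ratios within a library do not depend on how libraries were scaled. The ratio of mal1 to agl1 was 1.07 and 0.914 in the deletion-labelled libraries and 0.0603 and 0.125 in wild type.

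The ratio of inv1 to agl1 was nearly the same in both libraries of a group. It was 2.21 and 2.14 in the deletion-labelled libraries and 0.581 and 0.555 in wild type. In wild type each gene differed between the libraries by a ratio above 2.5, and their ratio to each other differed by 1.05. Both genes were higher in wild-type replicate 1, and both were slightly higher in labelled deletion replicate 2, by ratios of 1.23 for agl1 and 1.19 for inv1. These are values of 4 libraries from the contrast that chose the genes, so they are given with no test. Nor is a steady ratio particular to this pair. The gene lsd90, close to inv1 in profile, was at 2365 and 975 FPKM in wild type, against 686 and 261 FPKM for inv1. In the deletion-labelled libraries lsd90 was at 949 and 1214 FPKM, against 283 and 337 FPKM for inv1.

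**Figure D2:**
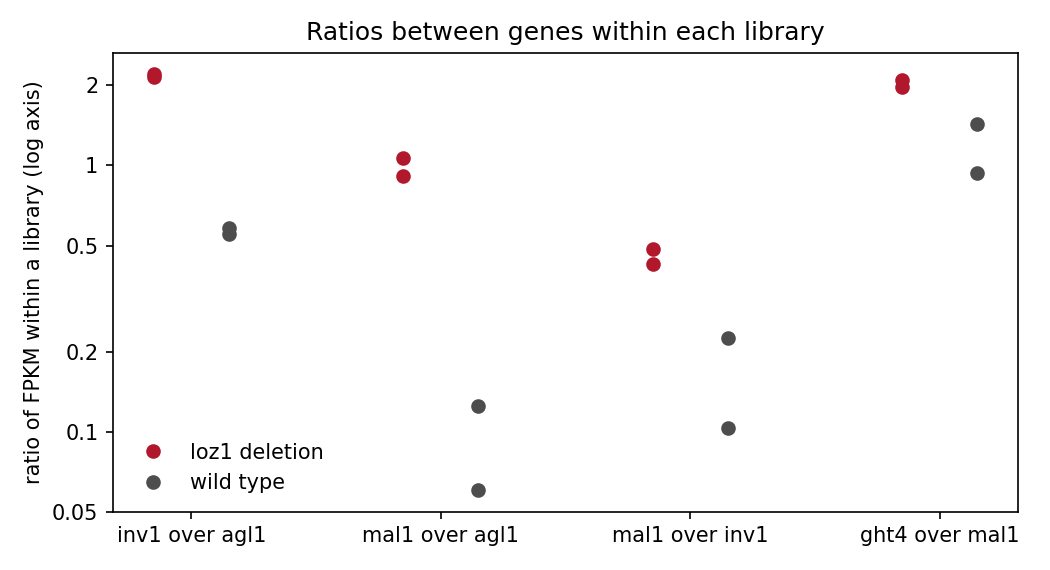
Ratio of FPKM between pairs of genes within each library, on a log axis, for deletion-labelled libraries (red) and wild type (grey), with 1 point per library. The ratio of inv1 to agl1 lies at 2.21 and 2.14 in the deletion-labelled libraries and at 0.581 and 0.555 in wild type, and the points of each pair nearly coincide.

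The gap between the wild-type libraries was large for agl1 and inv1 relative to other genes. On the log2 scale it was 1.32 for agl1 and 1.39 for inv1, and 2.26% and 1.92% of tested genes had a larger gap in either direction. For mal1 the gap was 0.27, which 45.0% of tested genes exceeded. Of 5697 tested genes averaging 5 FPKM or more, 100 genes, or 1.75%, were at least 2-fold higher in wild-type replicate 1 than in replicate 2 on the FPKM + 1 scale, and 85 genes, or 1.49%, were the other way round. In the deletion-labelled pair the gaps were -0.29 for agl1, -0.25 for inv1 and -0.07 for mal1.

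**Figure D3:**
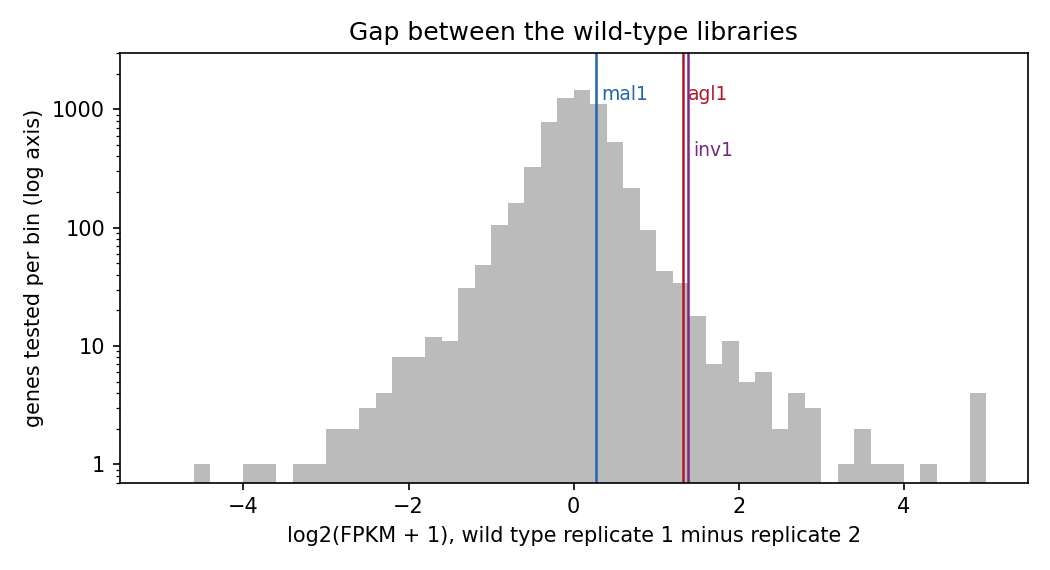
Number of tested genes (log axis) by the difference in log2(FPKM + 1) between wild-type replicates 1 and 2, with differences beyond 5 drawn in the end bins. Vertical lines mark mal1 at 0.27, agl1 at 1.32 and inv1 at 1.39; the lines of agl1 and inv1 lie in the right tail.

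By distance between mean-centred log2(FPKM + 1) profiles over the 4 libraries, the protein-coding genes most like each enzyme gene were named among 4798. For mal1 these were SPAC750.06c at a distance of 0.02, the glyoxylate reductase gene gor2 at 0.10 and the hexokinase gene hxk2 at 0.11. In FPKM hxk2, whose product phosphorylates glucose, was at 324 and 344 in the deletion-labelled libraries and at 157 and 131 in wild type. For agl1 the nearest were fub2 at 0.28, SPAC4F10.17 at 0.39 and the eisosome gene pil2 at 0.45. These lay farther off than those of mal1, but the distance was not scaled by the size of the changes. A gene with large differences, such as agl1, therefore tends to have fewer close neighbours by construction. For inv1 the nearest were the sulfate transporter gene sul2 at 0.10, lsd90 at 0.12 and the hexitol dehydrogenase gene tms1 at 0.24. In FPKM lsd90 was at 949 and 1214 in the deletion-labelled libraries and at 2365 and 975 in wild type, again with the wild-type libraries apart. The profiles hold the same 4 libraries that chose the genes, and only the closest of 4798 genes are shown. No relation between genes is read from them.

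Around mal1, ght4 and the non-coding RNAs SPNCRNA.1318 and SPNCRNA.1319 passed the threshold, and the coding genes thi7 and frp1 on either side did not. Of these frp1 was low, at 2.05 and 1.30 FPKM in the deletion-labelled libraries, against 2.30 and 0.791 FPKM in wild type. Changes of such low genes come out too small on the log2(FPKM + 1) scale, so frp1 cannot serve as an unchanged flank. The hexose transporter gene ght4, which starts 120 nt after the end of mal1 on the same strand, was at 271 and 302 FPKM in the deletion-labelled libraries, against 101 and 55.3 FPKM in wild type. It rose by 1.92 ± 0.29 (log2, SE, limma adjusted p = 0.0196). The ratio of ght4 to mal1 within a library was 1.97 and 2.10 in the deletion-labelled libraries and 1.43 and 0.941 in wild type. On the opposite strand SPNCRNA.1318, which overlaps 1110 nt of mal1, was at 0.948 and 1.42 FPKM in the deletion-labelled libraries, against 14.4 and 7.36 FPKM in wild type. It fell by 2.38 ± 0.36 (adjusted p = 0.0195). Both non-coding RNAs under mal1 thus stood apart between the groups, in opposite directions, and they lie next to each other on the same strand.

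Further on, SPNCRNA.1319, opposite to ght4 and named here after its values were seen, was at 313 and 368 FPKM in the deletion-labelled libraries, against 34.6 and 14.3 FPKM in wild type (3.87 ± 0.40, adjusted p = 0.00765). The uridine ribohydrolase gene urh1, annotated wholly inside the mal1 transcript of the files, was listed at 4.92e-07 and 1.1e-08 FPKM in the deletion-labelled libraries and at 0 in both wild-type libraries, and was not tested. Opposite-strand transcripts cover 80.8% of mal1 in all, and other transcripts cover 57.8% of ght4, 94.3% of SPNCRNA.1318 and 100% of SPNCRNA.1319. With no stated strand setting these values are uncertain as values of single transcripts. The calls of ght4 and SPNCRNA.1318 were lost when either deletion-labelled library was left out, and that of ght4 also with no filter on level.

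**Figure D4:**
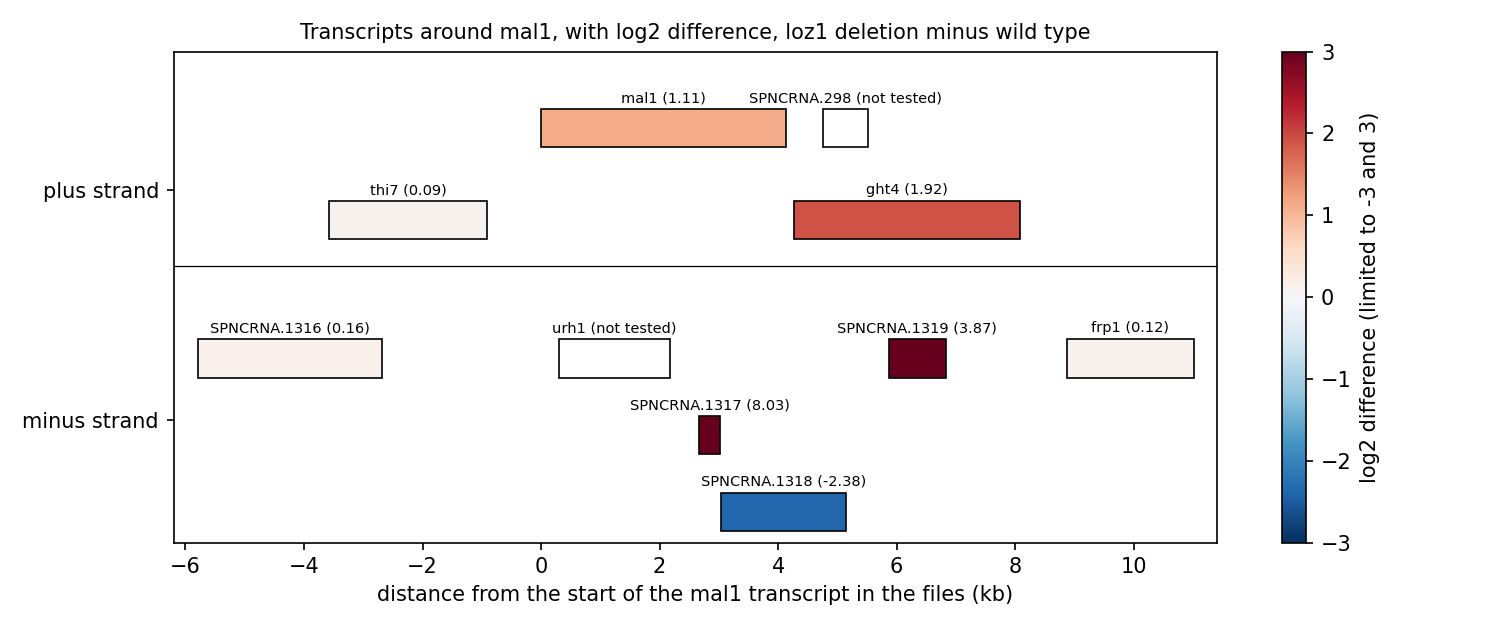
Transcripts around mal1 by distance in kb from the start of the mal1 transcript, plus strand above and minus strand below, coloured by the log2(FPKM + 1) difference between labelled deletion and wild type, which stands in brackets. Neighbours thi7 (0.09) and frp1 (0.12, a gene near the floor) are pale. In contrast mal1 (1.11), ght4 (1.92), SPNCRNA.1317 (8.03) and SPNCRNA.1319 (3.87) are red and SPNCRNA.1318 (-2.38) is blue.

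The neighbour list held the 3 nearest coding genes on each side of mal1, agl1 and inv1 and all transcripts overlapping them. Of its 19 tested members 3 (15.8%) rose and 1 (5.26%) fell, against 11.9% and 4.37% of all genes tested, and the median difference was 0.12, against 0.13. These shares are near those of all genes. Besides ght4 and SPNCRNA.1318, the esterase gene SPAPB1A11.02, which lies 8363 nt from agl1, rose by 3.36 ± 0.28 (adjusted p = 0.0041), the direction opposite to agl1. It was at 108 and 119 FPKM in the deletion-labelled libraries, against 13.7 and 7.43 FPKM in wild type, and its call held with each library left out. The gene utp502, for a ribonucleoprotein complex protein, beyond inv1 rose by 0.61 ± 0.10 (adjusted p = 0.0219), a call lost after rescaling and without either deletion-labelled library. The gene next to agl1, the ABC transporter gene pdr1, was at 10.9 and 12.6 FPKM in the deletion-labelled libraries, against 10.8 and 8.002 FPKM in wild type, and was not called. The transporter gene thi7 before mal1 was at 44.8 and 41.4 FPKM in the deletion-labelled libraries, against 48.3 and 33.5 FPKM in wild type, and was not called either. This list had fewer calls without a deletion-labelled library and more without a wild-type library, as had all genes tested.

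Other enzymes that split sugars were called about as often as genes in general. A list of 24 tested genes whose RefSeq product names a glucosidase, amylase, trehalase, fructofuranosidase or sucrose carrier held 3 (12.5%) that rose, against 11.9% of all genes tested, and none that fell. An unadjusted p under 0.05 was found for 7 (29.2%), against 36% of all genes tested. The median difference was 0.23, against 0.13 over all genes tested. The alpha-glucosidase gene gto2 was at 21.8 and 21.97 FPKM in the deletion-labelled libraries, against 9.10 and 9.50 FPKM in wild type, and rose by 1.15 ± 0.13 (limma adjusted p = 0.010). The gene exg1 was at 52.1 and 57.2 FPKM in the deletion-labelled libraries, against 2.87 and 6.20 FPKM in wild type. The other rises were those of exg1 (3.40 ± 0.31, adjusted p = 0.00527) and agn1 (0.85 ± 0.19, adjusted p = 0.0462), whose products act on wall glucans and not on maltose. The call of agn1 was lost after rescaling.

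Not called were inv2, gto1 and sut1, which were picked for their annotation after their values were seen. The second fructofuranosidase gene inv2, 98.2% overlapped by other transcripts, was at 24.8 and 25.9 FPKM in the deletion-labelled libraries, against 24.7 and 18.7 FPKM in wild type (0.23 ± 0.17). The gene gto1, annotated as an alpha-glucosidase like gto2 and 67.1% overlapped, was at 14.0 and 14.4 FPKM in the deletion-labelled libraries, against 13.2 and 15.9 FPKM in wild type (-0.02 ± 0.16). The sucrose and maltose carrier gene sut1 was at 54.2 and 57.0 FPKM in the deletion-labelled libraries, against 60.6 and 36.7 FPKM in wild type (0.23 ± 0.24). As over all genes tested, the list of 24 had fewer calls without a deletion-labelled library and more without a wild-type library.

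Of 23 genes of glucose repression and cAMP signalling 2 (8.70%) rose, against 11.9% of all genes tested, and none fell. An unadjusted p under 0.05 was found for 10 (43.5%), against 36% of all genes tested, so neither count stands far from that of all genes. The median difference was 0.39, against 0.13 over all genes tested. The rises were those of git7 (0.68 ± 0.10, limma adjusted p = 0.0198) and of pcr1, which encodes a partner of the stress factor Atf1 (0.44 ± 0.09, adjusted p = 0.0415, lost after rescaling). The repressor gene scr1 was at 9.30 and 10.3 FPKM in the deletion-labelled libraries, against 6.52 and 5.75 FPKM in wild type, a difference of 0.60 ± 0.18 that was not called. The activator gene rst2 was at 45.2 and 45.1 FPKM in the deletion-labelled libraries, against 52.9 and 37.7 FPKM in wild type, and was not called. Its calls became fewer without a deletion-labelled library and more without a wild-type library. Calls over all genes tested did the same. Here "its" means the list of 23 genes.

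Of 9 other genes of glucose-repressed metabolism and disaccharide uptake, 2 rose, ght4 and the glucose transporter gene ght1 (4.13 ± 0.44, limma adjusted p = 0.00785), and none fell. In FPKM ght1 was at 311 and 347 in the deletion-labelled libraries and at 29.0 and 10.8 in wild type. The median difference was 0.29, against 0.13 over all genes tested. The 2 calls are 22.2% of the list, against 11.9% of all genes called higher, and 3 genes (33.3%) had an unadjusted p under 0.05, against 36% of all genes. The glycerol-3-phosphate dehydrogenase gene gut2, fully overlapped by other transcripts, was at 340 and 392 FPKM in the deletion-labelled libraries, against 112 and 16.1 FPKM in wild type. Its groups did not overlap, but the wild-type libraries stood far apart, and the difference of 3.06 ± 0.87 was not called (adjusted p = 0.0753). The gluconeogenesis gene fbp1, a classical glucose-repressed gene and fully overlapped by other transcripts, was at 2216 and 2175 FPKM in the deletion-labelled libraries, against 1852 and 1591 FPKM in wild type, and was not called. The gluconate transporter gene ght3, also not called, was at 162 and 173 FPKM in the deletion-labelled libraries, against 585 and 160 FPKM in wild type. Its wild-type libraries stood apart like those of agl1 and inv1, with replicate 1 the higher. Leaving out a deletion-labelled library gave this list fewer calls and leaving out a wild-type library gave it more, as for all genes tested.

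**Figure D5:**
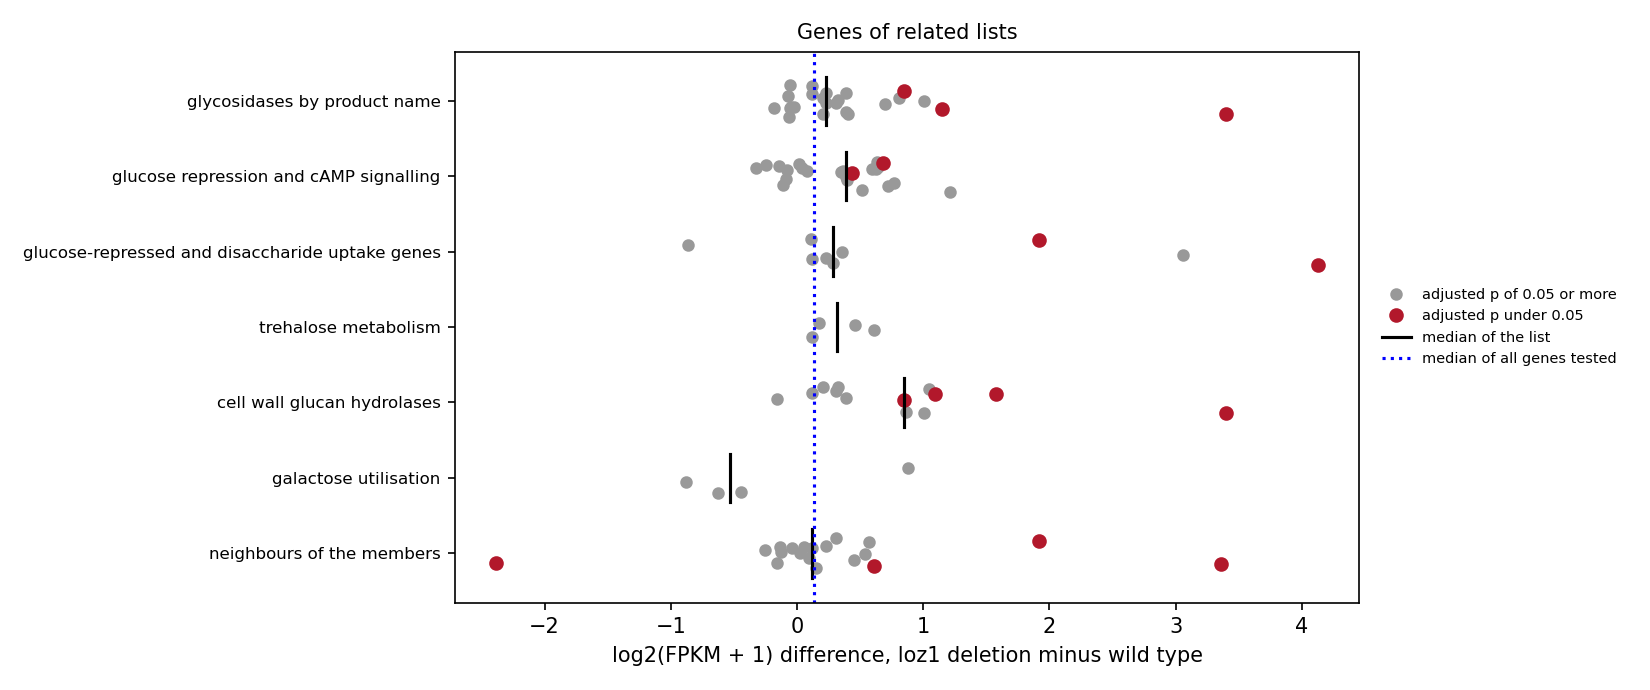
Difference in log2(FPKM + 1) between labelled deletion and wild type for the tested genes of 7 lists, 1 point per gene, red where the limma adjusted p was under 0.05. Black bars are list medians and the dotted line is the median of all genes tested, 0.13; the wall glucan list has the highest median, 0.85, and the galactose list the lowest, -0.53.

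A list of cell wall glucan hydrolases, which also holds glucanosyltransferases, had 4 of 13 tested genes called higher and none lower. The 4 are 30.8% of the list, against 11.9% of all genes tested. The median difference was 0.85, against 0.13 over all genes tested, and 8 genes (61.5%) had an unadjusted p under 0.05, against 36% of all genes. Besides exg1 and agn1 these were the glucanosyltransferase genes gas2 (1.09 ± 0.13, limma adjusted p = 0.00997), of which 89.0% is overlapped, and gas1 (1.57 ± 0.30, adjusted p = 0.033). The calls of gas1 and agn1 were lost after rescaling. Of the called genes in these lists exg1, ght1 and SPAPB1A11.02 kept their calls with each library left out, and the others lost theirs without either deletion-labelled library. The wall glucan list had fewer calls without a deletion-labelled library and more without a wild-type library, as had all genes tested.

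None of the 4 trehalose genes was called by limma, against 16.3% of all genes tested, with a median difference of 0.32. A limma unadjusted p under 0.05 was found for 0 of them, against 36% of all genes tested. The trehalase gene ntp1 was at 216 and 230 FPKM in the deletion-labelled libraries, against 263 and 160 FPKM in wild type. Calls among the trehalose genes appeared only without wild-type replicate 1, where more of all genes tested were called too. None of the 4 galactose genes was called either, with a median of -0.53. An unadjusted p under 0.05 was found for 2 of them, against 36% of all genes, namely gal7 with a difference of 0.88 and gal1 with one of -0.63, in opposite directions. The melibiase gene mel1, for splitting another disaccharide, was at 13.0 and 15.8 FPKM in the deletion-labelled libraries, against 40.3 and 18.4 FPKM in wild type, and was not called. The galactokinase gene gal1 was at 84.3 and 102 FPKM in the deletion-labelled libraries, against 165 and 126 FPKM in wild type. The gene gal7, for the transferase that follows it in the pathway, was at 180 and 215 FPKM in the deletion-labelled libraries, against 134 and 84.6 FPKM in wild type. Calls in the galactose list appeared only without a wild-type library, where more of all genes tested were called too.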

How the data were processed

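RNA of 4 fission yeast libraries, 2 labelled loz1 deletion and 2 wild type, was sequenced. The submitters' processing notes name Cufflinks and Cuffdiff, HISAT2, SAMtools and the build ASM294v2. For versions, strand setting and multiply mapped reads, the answer is not given in the sources used here. The deposited FPKM values, with bounds, stand in 1 line per transcript (7093 transcripts), while the score column deposited beside them went unused. Replicates were not pooled.

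FPKM was summed per gene. The model, limma 3.58.1 (R 4.3.3), was fitted to log2(FPKM + 1) of genes that averaged 1 FPKM or more and had a transcript of at least 200 nt, with a trended prior and Benjamini-Hochberg adjustment over 6315 genes, without rescaling. Calls needed an adjusted p under 0.05. All adjusted p-values come from this limma model (n = 2 per group). The members, lists and motifs were chosen with earlier results of these data known.

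Besides the members and loz1, the named genes were overlapping transcripts, the 3 nearest coding genes on each side, called list members, up to 4 others with the smallest p, the highest gene of a list, and the 3 nearest profiles. Not all were printed, and some were named after their values were seen: gto1, inv2, sut1, rst2, ght3, mel1, ntp1, SPNCRNA.1319 and mat1-Mc. RefSeq names and sequence (ASM294v3) were used by RefSeq coordinates; 98.0% of 5327 introns in the files are identical there. The sequence of 1 motif match is not reported here.

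The depth estimate comes from the width of the bounds and covers counting error only. On simulated libraries of 6315 genes the model recovered 18.0% of 50 genes changed 1.5-fold, 80.0% of 50 changed 2-fold and all 50 changed 4-fold. It called 3 of 6115 unchanged genes. The simulation gave all genes of a group the same spread between libraries, set from the median gap. These rates therefore do not hold for genes with wider gaps, such as agl1 and inv1 in wild type. The alternatives were other pseudocounts (0.1 and 5), filters, prior and scaling, a replicate block, a combined mal1 locus, and leaving out each library.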

Additional observations from a re-analysis of the deposited data

How the results depend on the processing

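Of 155 values recomputed under the alternatives, 111 moved by less than the spread between replicates or, for counts, by at most 1.5 times. Part of these outcomes was fixed in advance. With 2 libraries per group, leaving 1 out cannot move a difference beyond the spread used here. Filters, prior and replicate block do not change a difference at all. The count of 111 is therefore no measure of stability. Median-ratio rescaling gave 0.97 for mal1, 1.18 for the combined locus, 420 genes called higher and 319 lower, against 753 and 276, 1 call in place of 2 for glucose repression and 2 in place of 4 for wall glucans. Combining mal1 with SPNCRNA.1317 gave 1.32 in place of 1.11. A pseudocount of 0.1 or 5 gave 11.35 or 5.73 for SPNCRNA.1317. With no filter on level 176 genes were called lower, 1 in place of 2 for glucose-repressed genes and 2 in place of 4 for wall glucans. A prior without trend gave 1 for glucose repression and 2 for wall glucans. With no filter on level, and with a prior without trend, agl1 was no longer called. The cause was not tested.

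With a library left out the range was 0.97 to 1.24 for mal1, 7.95 to 8.11 for SPNCRNA.1317, -3.05 to -1.72 for agl1, -1.15 to 0.25 for inv1 and 1.19 to 1.46 for the combined locus. Genes called ranged from 73 to 2115 higher and from 40 to 880 lower. Calls ranged from 1 to 11 among glycosidases, 0 to 15 in glucose repression, 1 to 7 among glucose-repressed genes, 0 to 4 for trehalose, 1 to 9 for wall glucans, 0 to 4 for galactose and 1 to 7 among neighbours. The lone library of a group is then assumed to vary like the other pair.

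The labels number the libraries 1 and 2 in both groups, but same-numbered libraries did not deviate together (r = -0.012 over 6315 genes). With 1 deviation per group, this check cannot show whether they share a culture or batch, which the labels do not state. With the replicate block 538 genes were called higher and 224 lower, and the glucose repression list had 1 call in place of 2. In this balanced design the block cannot change a difference, so that of mal1 stayed at 1.11 by construction. For the enzyme genes each value corresponds to an estimated 3813 fragments or more, computed from FPKM, transcript length and the depth estimate. The lowest estimate is that of mal1 in wild-type replicate 2, and 80.8% of mal1 is overlapped by other transcripts.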
